A study of Mus musculus with 6 samples.

Results

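Transcripts of 39 genes of the lysosome and of autophagy were followed in R1 mouse embryonic stem cells, after 24 h and after 48 h of FGF2. The genes were picked by symbol from the 51912 gene rows of the deposited table, for their roles: the MiT/TFE transcription factors with folliculin and its partners, lysosomal membrane proteins and hydrolases, the proton pump, autophagy receptors, the ATG8 proteins and the core autophagy machinery. The set was proposed with the comparison of 48 h with 24 h already known, and Calcoco2 was singled out for how certain its decrease was. For that reason, the differences between the times are given for these genes as a description, with their errors but without p-values, and nothing rests on the number of them that passed a threshold. All 39 symbols matched 1 gene identifier each, and all 39 passed the filter on low counts, with at least 101 counts in every library.

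R1 is an established mouse embryonic stem cell line. All cells had first been kept in 2iLIF, a medium that holds the naive state with inhibitors of MEK and GSK3 and the cytokine LIF. They were then placed in serum-free N2B27 with FGF2 at 100 ng/ml for 24 h (3 libraries) or 48 h (3 libraries), and messenger RNA was sequenced. Cells left in 2iLIF, or moved to N2B27 without FGF2, were not analysed here, so effects of FGF2, of leaving 2iLIF and of time in culture cannot be told apart. Whether the 3 libraries of a time came from separate cultures is not stated, and the errors given measure only the spread between these libraries.

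The lysosome is the acidic compartment in which hydrolases break down proteins, lipids and glycans, and autophagy is the route that brings parts of the cytoplasm to it inside a double-membraned vesicle. TFE3, TFEB and MITF are related transcription factors that bind the E-box CACGTG and are known as activators of lysosome and autophagy genes, many of which carry a longer form of it, the CLEAR element, in their promoters. Folliculin, with FNIP1 or FNIP2, acts at the lysosome on the Rag GTPases and favours retention of these factors in the cytoplasm. In mouse embryonic stem cells, folliculin and nuclear TFE3 are known for their opposite roles in the exit from the naive state.

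Because this element is the sequence by which these genes are usually recognised, it was looked for in their promoters. The sequence itself does not depend on the counts, but the genes were chosen with the comparison known. That they are recognised by this element can also raise its share among them, so the shares below are a description. RefSeq windows (GRCm38.p6) from 250 bases before to 50 bases after the transcript start were at hand for 32 of the 39 genes, 38 windows in all. The E-box CACGTG, which reads the same on both strands, was in 13 of the 38 windows (34.2%), against 7.15% of all 32851 windows in that table and 9.91% of the 13690 windows of genes tested in the count data. Among 126 further lysosome and autophagy genes, described after the 39, it was in 25 of 125 windows (20%). The 8-base core TCACGTGA, which contains the E-box, was in 6 windows (15.8%), against 7.2% of the windows of the further genes, 0.974% of all windows and 1.73% of those of tested genes. The CLEAR element in full, which is that core with a G before and a C after it, was in 0 of the 38 windows, in 1.6% of those of the further genes and in 0.326% of all. The median GC content was 58% in the windows of the 39 genes, 60.7% in those of tested genes and 52.7% in all. A match is a run of letters and does not show that a factor binds there.

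The 6 genes whose windows hold the 8-base core are shown, 30 bases each on the strand of the gene, 5′ to 3′, with the core in capitals. The window of Gla holds the core 2 times, and the copy nearer to the start is given.
Atp6v0d1 (chr8:105566050-105566079, minus strand): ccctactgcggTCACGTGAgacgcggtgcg
Atp6v1a (chr16:44139373-44139402, minus strand): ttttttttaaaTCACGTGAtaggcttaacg
Ctsd (chr7:142387908-142387937, minus strand): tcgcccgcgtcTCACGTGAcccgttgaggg
Gla (chrX:134601182-134601211, minus strand): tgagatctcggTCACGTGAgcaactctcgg
Mcoln1 (chr8:3500462-3500491, plus strand): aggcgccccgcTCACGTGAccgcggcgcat
Atg3 (chr16:45158746-45158775, plus strand): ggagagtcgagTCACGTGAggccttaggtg
The stretches of Ctsd, Gla and Mcoln1 overlap an exon in GENCODE M21, and the others lie outside annotated exons.

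Of the other 7 genes with an E-box, 4 that were lower at 48 h are shown by the bases before their start, with each CACGTG in capitals. They were chosen after their values were seen.
Lamp1 (chr8:13159070-13159160, plus strand): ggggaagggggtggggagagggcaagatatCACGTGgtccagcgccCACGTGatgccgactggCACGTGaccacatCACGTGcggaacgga
Gaa (chr11:119267793-119267858, plus strand): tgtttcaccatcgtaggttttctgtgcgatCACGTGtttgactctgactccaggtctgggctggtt
Glb1 (chr9:114401000-114401065, plus strand): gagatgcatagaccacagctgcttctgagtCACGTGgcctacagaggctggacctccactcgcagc
Fnip1 (chr11:54438074-54438139, plus strand): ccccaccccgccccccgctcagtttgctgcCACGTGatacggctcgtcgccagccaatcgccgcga
Lamp1, whose product is among the most abundant proteins of the lysosomal membrane, had 4 copies within 91 bases. The windows of the 13 genes held 20 E-boxes, 13 of them within the last 100 bases before the start.

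**Figure D1:**
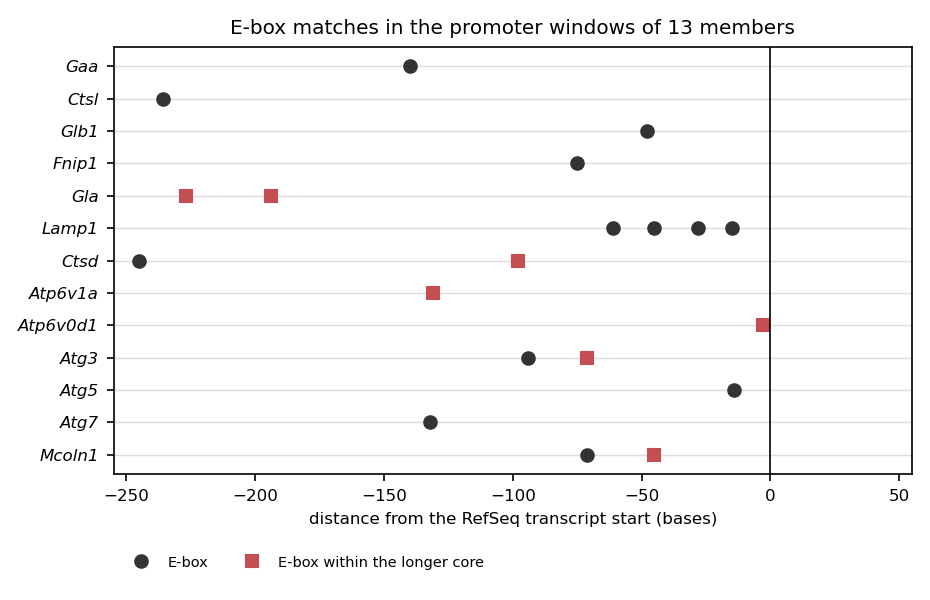
Position of each E-box in the promoter windows of the 13 genes that have one, as the distance of its first base from the RefSeq transcript start (0 on the axis, negative before it), with genes ordered from the largest decrease at 48 h (Gaa) to Mcoln1, which did not pass the test. Circles are E-boxes and squares those within the 8-base core. The 20 matches lie between 245 and 3 bases before the start, and Lamp1 has 4 of them.

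By role, the E-box was in the windows of 5 of 8 hydrolase genes with a window, 2 of 2 proton pump genes, 2 of 4 membrane genes, 3 of 4 core autophagy genes and 1 of 6 genes of the MiT/TFE and folliculin group. It was in 0 of 4 ATG8 genes and 0 of 4 receptor genes. The genes without a window, which were not searched, were Calcoco2, Map1lc3a, Ctsb, Npc1, Atp6v1h, Becn1 and Atg16l1. Of the 13 genes with an E-box, 9 were lower at 48 h (69.2%) and 0 higher. Of the 19 without one, 11 were lower (57.9%) and 4 higher (21.1%). Atp6v1h and Atg16l1, which rose, are in neither group. The calls come from the comparison that was known when the set was proposed, so this split is a description. In the further lysosome and autophagy genes the shares ran the other way. Of the 24 with an E-box 11 were lower (45.8%) and 7 higher (29.2%), and of the 77 without one 49 were lower (63.6%) and 8 higher (10.4%). Across all tested genes with a window the shares were close to each other: 33.6% of the 1266 genes with one were lower at 48 h and 35% higher, and 33.6% of the 9463 without one were lower and 31.4% higher.

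The levels of the 39 genes were then compared between 24 h and 48 h. Levels are CPM, the usual depth-scaled count, taken relative to the TMM-adjusted library total, each fold change sets 48 h against 24 h and is a log2 value with a standard error (SE), and a gene is called changed where edgeR's quasi-likelihood test, fitted on all 14889 tested genes, gave an adjusted p under 0.05. By that call 24 of the 39 genes fell, 6 rose and 9 did not pass. Over all tested genes the call took in 62.8%, of which 30.9% were higher and 31.9% lower at 48 h as shares of all tested, and no count over the 39 genes is read as more than a description. For 31 of the 39 the 24 h and 48 h libraries were fully separate, as they were for 66.9% of all tested genes. The median log2 fold change was -0.18 over the 39 genes and -0.01 over all genes tested. The size was under 0.5 for 24 of the 39 (61.5%), against 71.9% of all genes. At least 2-fold changes were found for Tfe3 and Optn, upward, and for Calcoco2, Mitf, Tfeb, Gaa and Ulk1, downward. The summed level of the 39 genes lay between 3349 and 3433 CPM at 24 h and between 2772 and 2783 CPM at 48 h. In bulk RNA, fewer cells of a type and less RNA per cell cannot be told apart.

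**Figure D2:**
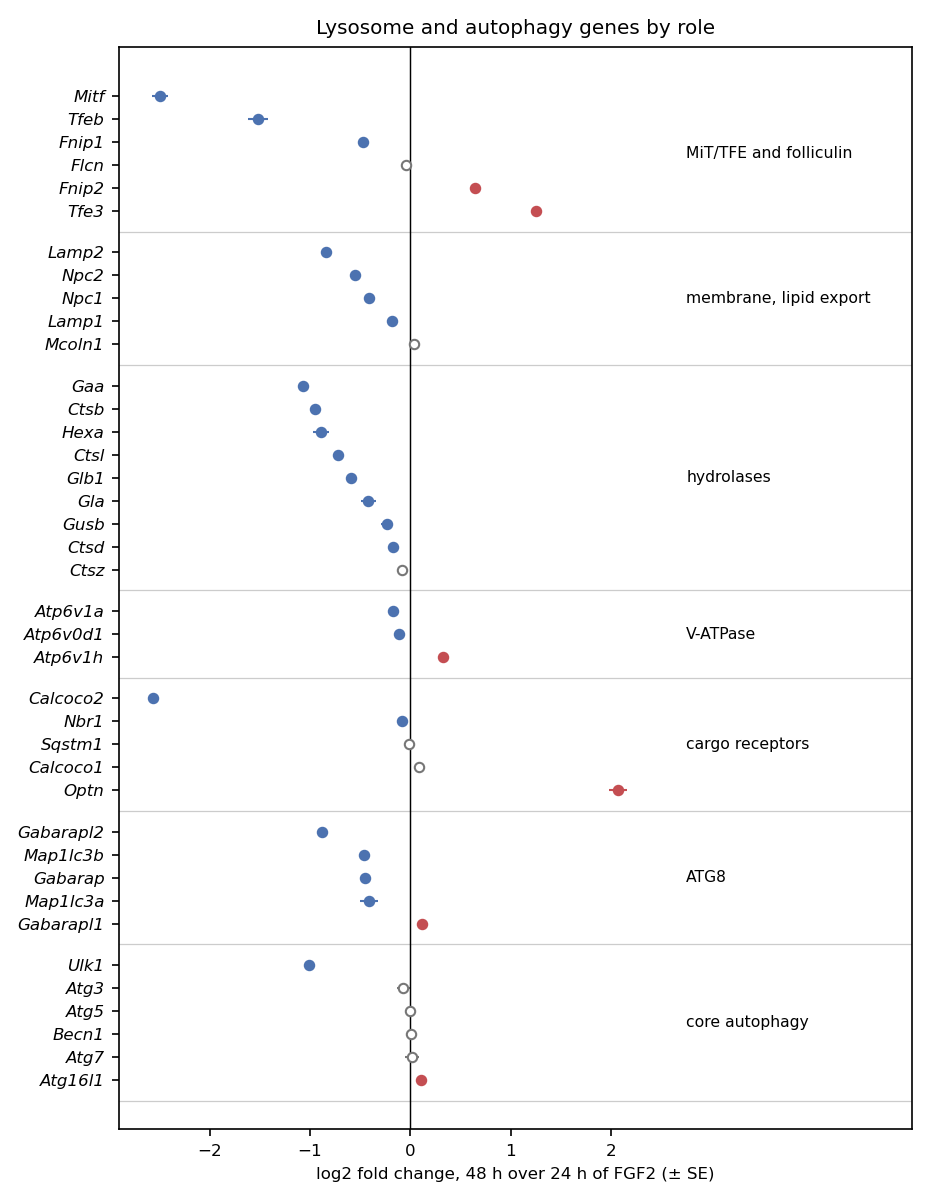
Log2 fold change of each of the 39 genes, 48 h over 24 h of FGF2, with its SE as a bar, in blocks by role. Blue points fell and red points rose at an adjusted p under 0.05 and open points did not pass. The hydrolases all lie left of 0, while the MiT/TFE and receptor blocks run from Mitf (-2.49) to Tfe3 (1.25) and from Calcoco2 (-2.57) to Optn (2.07).

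The 6 libraries held between 19575000 and 23133100 estimated counts, and all expressed the pluripotency genes of the embryonic stem cell: the 8 markers checked (Pou5f1, Sox2, Sall4, Utf1, Zfp42, Esrrb, Klf4 and Nanog) summed to between 4378 and 4508 CPM at 24 h and between 2857 and 2967 CPM at 48 h. Of these 8 markers 6 fell and 2 rose, beside 31.9% lower and 30.9% higher among all tested genes. Nanog, Klf4, Esrrb and Zfp42 went from means of 695, 119, 569 and 1034 CPM to 174, 26.5, 205 and 495 CPM. Utf1 and Sall4 rose, from 202 and 302 CPM to 305 and 352 CPM. Markers of primitive endoderm (7 genes) summed to between 9.36 and 11.1 CPM at 24 h and 5.67 and 6.44 CPM at 48 h, with 3 of 7 expressed highly enough to test and the defining Gata6, Sox17 and Foxa2 at means of 0.136, 0.397 and 0.0471 CPM at 24 h and 0.259, 0.364 and 0.107 CPM at 48 h. Gata4 had the highest mean of the endoderm markers at 24 h and fell, from 5.84 ± 0.856 to 2.25 ± 0.217 CPM (SD, n = 3). The 7 fibroblast markers summed to between 4.05 and 6.02 CPM and between 3.13 and 4.47 CPM, with Lum at 0 in every library. Dcn was at 0 in every 24 h library and rose to 1.06, 1.14 and 1.44 CPM at 48 h. Col1a1 and Pdgfrb fell, from means of 1.03 and 2.06 CPM to 0.304 and 0.593 CPM. The endoderm sum was thus lower at 48 h, with Gata4 lower and Gata6, Sox17 and Foxa2 near 0 at both times. The part of any such cells in the levels of the lysosomal genes was not tested.

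Among the transcription factors, Tfe3 rose while its relatives fell. The level of Tfe3 (ENSMUSG00000000134, chromosome X, 7762560 to 7775202) was 77.0, 82.1 and 79.3 CPM in the 24 h libraries and 190.2, 185.9 and 192.0 CPM in the 48 h libraries. Every 48 h library was thus far above every 24 h library, and the log2 fold change was 1.25 (SE 0.03), or 2.38-fold. The level of Mitf, the family member best known from pigment cells, was 42.7, 41.7 and 47.0 CPM and then 7.69, 6.67 and 8.98 CPM. It fell by 2.49 on the log2 scale (SE 0.08), and its 48 h libraries were all below its 24 h libraries. Tfeb, a regulator of lysosome formation, was at 14.5, 12.99 and 15.1 CPM and then at 4.65, 4.799 and 5.46 CPM, a change in log2 of -1.52 (SE 0.10).

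The make-up of the family differed between the times. On a scale of counts per base of GENCODE M21 exon, set to the same sum in every library, Tfe3 took 47.3% ± 2.08 (SD, n = 3) of the family's summed level at 24 h and 90.6% ± 0.879 at 48 h. The share of Mitf went from 38.9% ± 1.36 to 5.55% ± 0.683, and that of Tfeb from 13.8% ± 0.864 to 3.88% ± 0.267. The sum of these levels was 56.7 ± 1.77 at 24 h and 69.7 ± 1.42 at 48 h. The exon length counts every annotated exon of a gene, which is longer than 1 transcript and lowers the level of genes with many isoforms.

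The folliculin gene itself was level while its partners moved apart. Flcn, which encodes folliculin, was at 36.7, 35.4 and 33.7 CPM and then at 33.0, 34.4 and 35.0 CPM, with overlapping groups and a change in log2 of -0.04 (SE 0.05). Fnip1, a folliculin partner, had 61.0, 59.2 and 60.1 CPM and then 42.3, 43.9 and 44.2 CPM, and fell by 0.47 on the log2 scale (SE 0.04). The other partner gene, Fnip2, had 88.4, 88.0 and 83.2 CPM and then 138.9, 132.5 and 133.6 CPM, and rose by 0.64 (SE 0.03). For both partners the times did not overlap. The share of Fnip2 in the summed per-length level of the pair went from 55.1% ± 0.876 to 72.5% ± 0.937 (SD, n = 3).

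**Figure D3:**
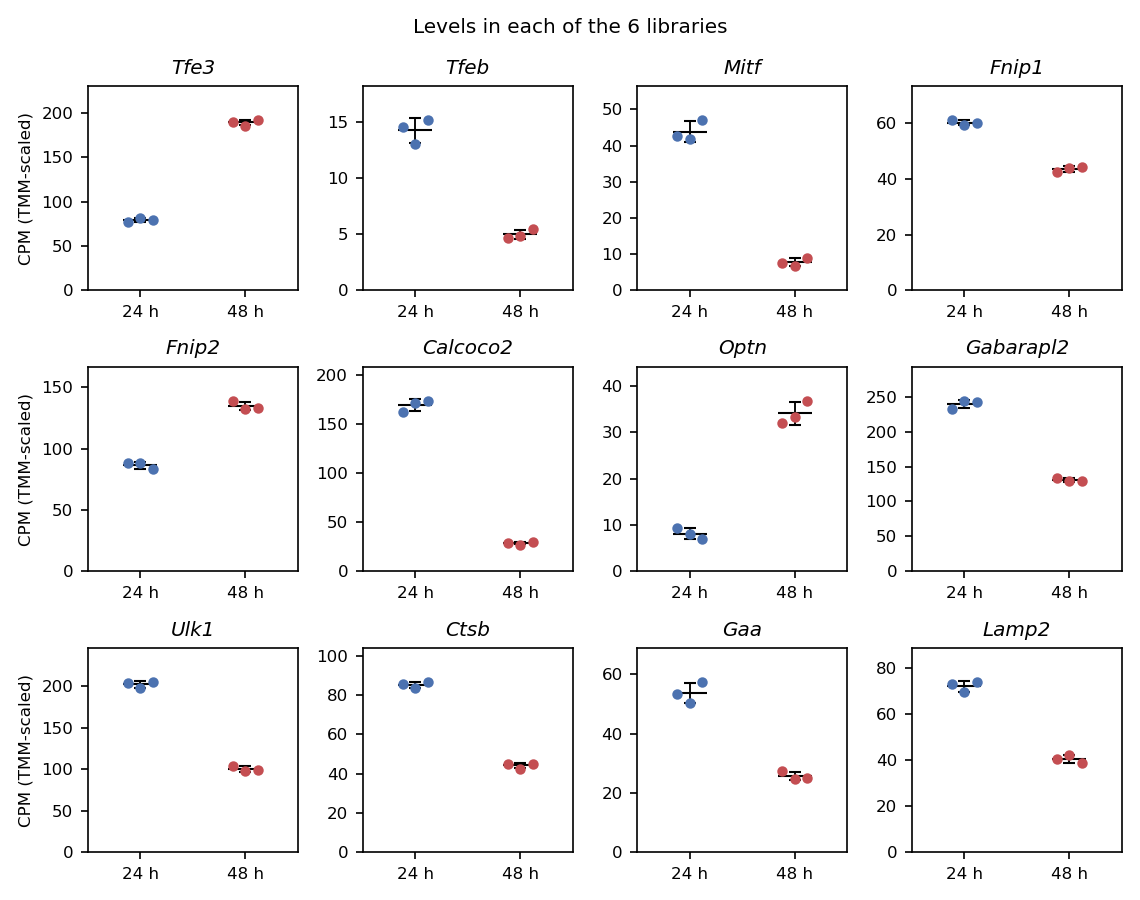
Level in CPM (TMM-scaled, axis from 0) of 12 of the genes in each of the 3 libraries at 24 h (blue) and 48 h (red), with the mean and SD in black. Only genes called changed are shown, and none of those with overlapping groups, so the groups do not overlap in any panel. They did not overlap for 31 of the 39 genes and for 66.9% of all tested genes. Tfe3, Fnip2 and Optn are higher at 48 h, and the other 9 are lower.

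The hydrolases, the digestive enzymes of the lysosome, moved in 1 direction. Of the 9 genes, 8 fell and Ctsz did not pass, beside 31.9% lower and 30.9% higher among all tested genes. Their median log2 fold change was -0.59, and their summed level went from between 579 and 621 CPM at 24 h to between 422 and 424 CPM at 48 h. Gaa, the enzyme that breaks down glycogen in the lysosome, showed the largest decrease, with 53.4, 50.4 and 57.3 CPM at 24 h and 27.3, 24.8 and 24.9 CPM at 48 h, a change in log2 of -1.07 (SE 0.05). Ctsb, a cysteine protease, had 85.4, 83.7 and 86.6 CPM and then 45.2, 42.5 and 44.9 CPM, and fell by 0.95 (SE 0.04). Both genes kept a wide gap between the times compared with the spread within them.

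Hexa, which encodes the alpha subunit of beta-hexosaminidase, was at 17.0, 16.7 and 19.4 CPM and then at 9.39, 9.60 and 9.74 CPM (log2 fold change -0.89, SE 0.08). Ctsl, another cysteine protease, was at 94.8, 89.0 and 100.4 CPM and then at 59.2, 58.0 and 55.2 CPM (-0.72, SE 0.04). Glb1, the lysosomal beta-galactosidase, went from 100.2 ± 2.62 to 66.7 ± 2.00 CPM (SD, n = 3; -0.59, SE 0.03). The decreases of Gla (alpha-galactosidase A), Gusb (beta-glucuronidase) and Ctsd were smaller, at -0.42, -0.23 and -0.17. Ctsd, an aspartic protease, was at 170.2, 163.7 and 174.4 CPM and then at 149.96, 148.8 and 153.4 CPM, so it stayed the most abundant hydrolase of the 9 on the per-length scale at both times, at 225 ± 7.02 and 198 ± 1.94. Ctsz, a carboxypeptidase, had 35.5, 37.3 and 38.1 CPM and then 34.0, 35.5 and 35.3 CPM, a change in log2 of -0.08 (SE 0.04) with groups that did not overlap. With library size as the only scaling it passed, at -0.14.

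Of the 5 genes of the lysosomal membrane and of cholesterol export, 4 fell and Mcoln1 did not pass, with a median log2 fold change of -0.41. Among all tested genes 31.9% were lower and 30.9% higher. Lamp2, which encodes a major membrane glycoprotein with a part in chaperone-mediated autophagy, was at 73.0, 69.3 and 73.8 CPM and then at 40.3, 42.1 and 38.7 CPM, and fell by 0.84 on the log2 scale (SE 0.04). Lamp1 was at 407, 421 and 426 CPM and then at 363, 368 and 377 CPM, and fell by only 0.18 (SE 0.02). The groups of both did not overlap. Lamp1 had the highest per-length level of the 39 genes at both times, at 488 ± 11.96 and 426 ± 5.97 (SD, n = 3).

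Npc1 and Npc2, whose products act together to carry cholesterol out of the lysosome, fell by 0.41 (SE 0.05) and 0.55 (SE 0.03). Npc2 was at 92.9, 94.8 and 99.2 CPM and then at 64.7, 64.6 and 66.3 CPM. The levels of Npc1 were 48.7, 53.7 and 51.9 CPM and then 40.4, 39.5 and 36.2 CPM, also without overlap. Mcoln1, the lysosomal calcium channel, did not pass, with 25.3, 28.5 and 26.3 CPM and then 27.3, 27.6 and 27.3 CPM (0.04, SE 0.05).

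The proton pump (V-ATPase), which acidifies the lysosome, changed little. Atp6v1a, the catalytic subunit, was at 210.8, 203.5 and 204.9 CPM and then at 179.8, 189.9 and 181.6 CPM, a change in log2 of -0.17 (SE 0.03). Atp6v0d1, a subunit of the membrane sector, changed by -0.11 (SE 0.03). Atp6v1h, a regulatory subunit of the outer sector, went the other way, from 56.0, 53.2 and 53.4 CPM to 69.5, 68.7 and 65.8 CPM (0.33, SE 0.04). Exons of Atp6v1h overlap those of Rgs20 on the opposite strand, which rose from 1.09 to 3.13 CPM. Its part in the counts of Atp6v1h was not tested.

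The autophagy receptors, which tie cargo to the ATG8 proteins on the growing membrane, held the largest changes in both directions. Calcoco2 (ENSMUSG00000006056, chromosome 11, 96099326 to 96111964) encodes NDP52, described in human cells as a receptor for bacteria and damaged mitochondria. Whether the mouse protein has that role was not tested. Calcoco2 was at 162, 172 and 173 CPM at 24 h and at 28.9, 27.3 and 29.5 CPM at 48 h. Every 24 h library was far above every 48 h library, and the log2 fold change was -2.57 (SE 0.04), or 5.92-fold lower. By unadjusted p it had rank 11 of all tested genes and rank 5 of those that were lower at 48 h, which is why it was singled out. Optn, which encodes optineurin, a receptor for ubiquitinated cargo, was at 9.41, 7.96 and 7.08 CPM and then at 32.1, 33.3 and 36.7 CPM, and rose by 2.07 (SE 0.09), or 4.20-fold.

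The remaining receptors were close to level. Sqstm1, which encodes p62, had 148, 151 and 155 CPM and then 148, 149 and 152 CPM, and Calcoco1, a receptor for the endoplasmic reticulum and Golgi, had 38.3, 40.2 and 42.0 CPM and then 44.2, 43.0 and 41.3 CPM. Both had overlapping groups, and Sqstm1 passed with library size as the only scaling, at -0.07. Nbr1, a relative of p62, fell by 0.08 (SE 0.02), from 229.9 ± 1.83 to 217 ± 0.963 CPM (SD, n = 3). On the per-length scale Calcoco2 held 54.3% ± 0.589 of the summed level of the 5 receptors at 24 h and 15.9% ± 0.447 at 48 h, and Sqstm1 became the most abundant, from 23.5% ± 0.248 to 40.5% ± 0.227. Optn went from 1.13% ± 0.193 to 8.21% ± 0.467. The summed per-length level of the 5 was 599.9 ± 15.1 and then 341 ± 3.06. Among all 39 genes Calcoco2 went from rank 2 by per-length level to rank 12, and Optn from rank 39 to rank 19.

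**Figure D4:**
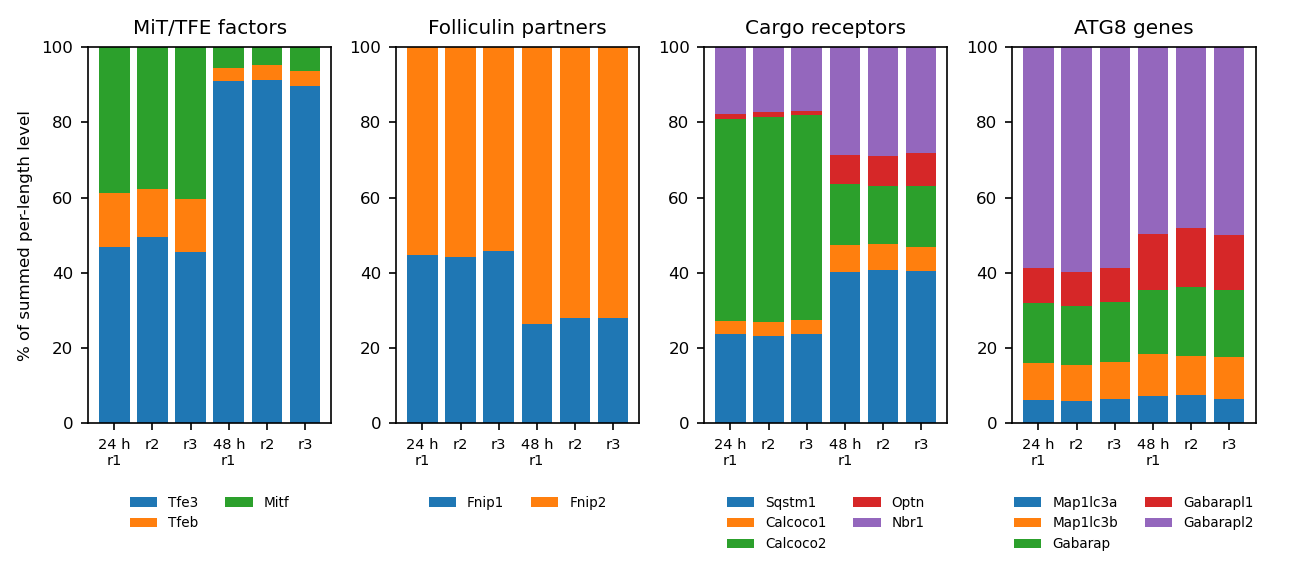
Share of each gene in the summed per-length level of its family, in percent (axis from 0 to 100), in each of the 6 libraries (r1 to r3 at 24 h, then at 48 h), for the MiT/TFE factors, the folliculin partners, the cargo receptors and the ATG8 genes. The replicates of a time are alike, Tfe3 fills 90.6% of its family at 48 h and Calcoco2 shrinks from 54.3% to 15.9% of the receptors.

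The ATG8 genes encode the small proteins that are joined to lipid on the autophagosome and are bound by the receptors. Gabarapl2, the most abundant, was at 232, 244 and 243 CPM and then at 133.3, 128.8 and 129.9 CPM, and fell by 0.87 (SE 0.03). Map1lc3b, the source of the LC3B marker of autophagy, was at 127, 125 and 131 CPM and then at 95.5, 89.3 and 93.0 CPM, and fell by 0.46 (SE 0.03). Neither gene's groups overlapped. Gabarap and Map1lc3a fell by 0.45 (SE 0.04) and 0.41 (SE 0.09). Gabarapl1 differed from the other ATG8 genes in sign, with 32.2, 32.0 and 31.7 CPM and then 34.6, 36.2 and 33.0 CPM (0.11, SE 0.05), a call that was lost under 10 of 15 alternative settings. Gabarapl2 held 59.1% ± 0.624 of the summed per-length level of the 5 genes at 24 h and 49.3% ± 0.934 at 48 h, while the sum went from 544 ± 11.5 to 352 ± 7.89.

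In the core machinery a single gene moved by much. Ulk1, the kinase that starts autophagy, was at 203.5, 197.1 and 204.6 CPM and then at 104.1, 98.0 and 99.0 CPM, and fell by 1.01 (SE 0.03), with no overlap between the times. Becn1, a subunit of the lipid kinase complex that acts next, had a change in log2 of 0.01 (SE 0.04). The genes of the conjugation systems that attach ATG8 proteins to lipid were also near 0, at -0.07 (SE 0.06) for Atg3, 0.00 (SE 0.04) for Atg5 and 0.02 (SE 0.07) for Atg7, and none of these 4 passed. Atg5 had 36.4, 37.7 and 36.1 CPM and then 37.2, 36.2 and 36.9 CPM. Atg16l1, the partner of the ATG12-ATG5 conjugate, changed by 0.10 (SE 0.04), from 48.1 ± 1.23 to 51.6 ± 1.38 CPM (SD, n = 3), a call that was lost under 8 of the 15 alternative settings.

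To place these genes among the rest of the pathway, 126 further genes were taken from lists of the same compartments, of which 124 could be tested. With edgeR's quasi-likelihood test, 72 of them fell, 16 rose and 36 did not pass, beside 31.9% lower and 30.9% higher among all genes. Their median log2 fold change was -0.20, and their sum went from between 6465 and 6516 CPM to between 5784 and 5789 CPM. The genes whose adjusted p is given below were picked for large changes in this same comparison. Those p-values are thus a description and not separate evidence.

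The other hydrolases and their cofactors fell in 25 of 32 tested cases and rose in 1, with a median of -0.42. Among all tested genes 31.9% were lower and 30.9% higher. Ctsc, a protease that activates serine proteases of immune cells, went from 12.2 ± 1.24 to 4.85 ± 0.461 CPM (SD, n = 3), a change in log2 of -1.33 (SE 0.11, edgeR adjusted p = 1.32e-08). Arsa, arylsulfatase A, went the other way and rose from 23.9 ± 1.52 to 30.1 ± 0.942 CPM (0.34, SE 0.06, edgeR adjusted p = 6.42e-05).

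Of 17 further genes of the membrane and of enzyme sorting, 11 fell and 4 rose, with a median of -0.23. Cd63, a tetraspanin of late endosomes, went from 34.0 ± 0.873 to 20.3 ± 0.893 CPM (SD, n = 3; change in log2 -0.75, edgeR adjusted p = 2.13e-09), and Scarb2, the receptor that delivers glucocerebrosidase, from 40.4 ± 1.21 to 25.1 ± 0.646 CPM (-0.69). Sort1, the sorting receptor sortilin, rose by 0.29 and Cd68, a lysosomal glycoprotein, by 0.28. Of 14 further genes of the proton pump, 8 fell and 1 rose, with a median of -0.12. Beside both lists, 31.9% of all tested genes were lower and 30.9% higher. Atp6ap2, an accessory protein of the pump, fell most, from 79.4 ± 0.825 to 51.6 ± 0.731 CPM (-0.62, edgeR adjusted p = 5.39e-11), and Atp6v1f rose by 0.12.

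Of 10 further receptors of selective autophagy, 5 fell and 1 rose. Tex264 and Retreg1, receptors for the endoplasmic reticulum, went from 12.95 ± 0.161 to 6.32 ± 0.253 CPM and from 9.38 ± 1.78 to 4.78 ± 0.756 CPM (SD, n = 3; log2 fold changes -1.03 and -0.96, edgeR adjusted p = 1.68e-08 and 1.48e-05). Bnip3, a receptor for mitochondria, rose from 46.7 ± 2.20 to 72.7 ± 2.87 CPM (0.64). Of 32 further core autophagy genes, 17 fell and 4 rose, with a median of -0.13. Beside the receptors and these core genes, 31.9% of all tested genes were lower and 30.9% higher. Atg4c, a protease that trims ATG8 proteins, and Stx17, which fuses autophagosomes with lysosomes, had the largest decreases (-0.85 and -0.74), and Ulk2, the close relative of Ulk1, rose by 0.44 (SE 0.10, edgeR adjusted p = 0.00104) from 5.82 ± 0.139 to 7.89 ± 0.551 CPM.

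Of the genes through which the lysosome signals to mTORC1, the kinase that restrains autophagy, 6 of 19 tested fell and 5 rose. These counts were near the shares over all tested genes, 31.9% lower and 30.9% higher. The median was -0.01 for this list and for all tested genes. The Rag GTPase genes held the largest increases. Rragb went from 17.4 ± 0.474 to 41.6 ± 2.04 CPM (SD, n = 3; change in log2 1.26, SE 0.05, edgeR adjusted p = 2.81e-12) and Rragd, whose product is a target of folliculin, from 23.1 ± 1.98 to 51.2 ± 0.557 CPM (1.15, SE 0.05, edgeR adjusted p = 6.58e-12). Their near relatives Rraga and Rragc changed by -0.01 and 0.21. The share of Rragb in the summed per-length level of Rraga and Rragb went from 13.7% ± 0.4999 to 27.6% ± 0.737, and that of Rragd in the sum of Rragc and Rragd from 22.5% ± 2.28 to 35.6% ± 0.938. Nprl2 and Lamtor4 had the largest decreases here, at -0.38 and -0.33. Tfec, the remaining member of the MiT/TFE family, was at 0 in every library.

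**Figure D5:**
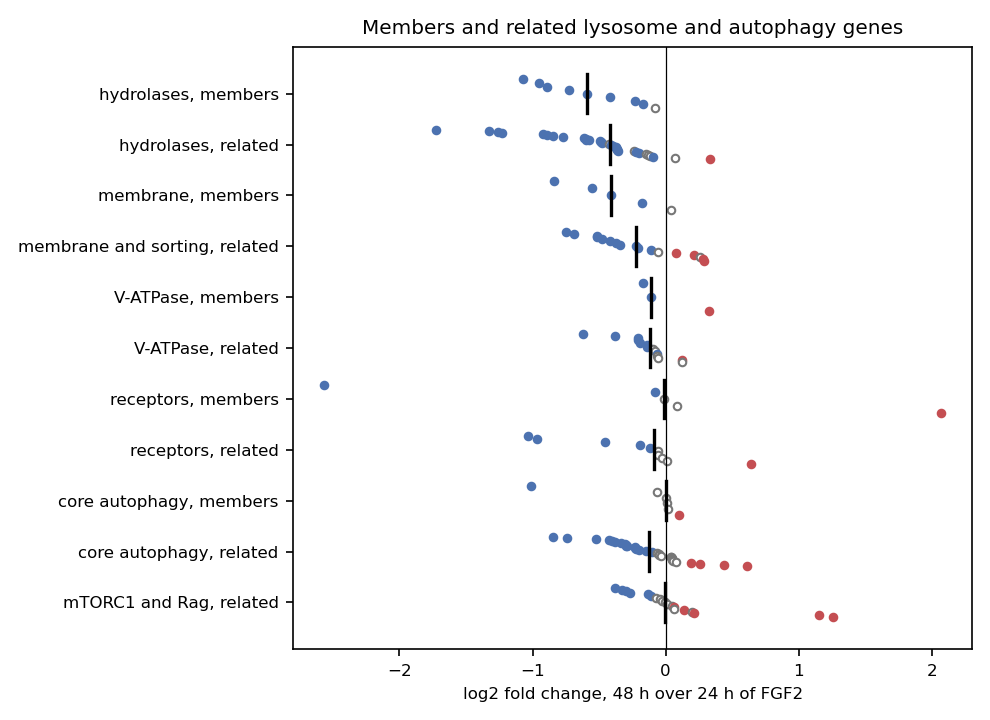
Log2 fold change, 48 h over 24 h, of each tested gene (points) in the role groups, for the 39 genes (members) and the further genes of the same compartment (related). The ATG8 genes and the MiT/TFE and folliculin group have no related list and are left out. Blue points fell and red points rose at an adjusted p under 0.05, open points did not pass, and the black bar is the group's median. The hydrolase medians are -0.59 and -0.42, and those of the proton pump -0.11 and -0.12. The Rag genes Rragb and Rragd stand at the right of their row, and Optn (2.07) is the point farthest right.

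Of the 39 genes, 14 share exon sequence with another gene in GENCODE M21, 12 of them with a gene on the opposite strand, and whether counting used strand is not given in the sources used here, so their counts can hold reads of the neighbour. Among them are Optn, Lamp1, Ctsb and Gabarapl1. Some neighbours fell as their partner among the 39 did: Rmc1, opposite Npc1, went from 36.6 to 25.3 CPM (-0.53), Grtp1, opposite Lamp1, from 34.3 to 24.7 CPM (-0.47), and Tmppe, on the strand of Glb1, from 13.1 to 8.13 CPM (-0.69). Nelfcd, opposite Ctsz, and Mrnip, opposite Sqstm1, fell by 0.20 and 0.37, while neither Ctsz nor Sqstm1 passed. Fdft1, opposite Ctsb, was more abundant than Ctsb and rose by 0.09. Zcchc14, opposite Map1lc3b, and Cntd1, opposite Becn1, did not pass (-0.01 and -0.16), and the neighbour of Optn did not pass the filter on low counts. The part of these neighbours in the counts of the 39 genes was not tested. Ctsd, Glb1, Calcoco2, Map1lc3b and Gabarapl2 had fractional counts in at least 1 library, so some of their reads were not assigned whole to 1 gene. Exons of Ctsd and Glb1 overlap those of a same-strand gene. For Calcoco2 every count lay within 0.05 of a whole number.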

How the data were processed

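The authors deposited 1 table of estimated counts, with a row per gene and a column per sample, unscaled for depth or gene length. Its name credits RSEM. RSEM 1.3.0, STAR 2.5.2, cutadapt 1.9.1 and the build GRCm38 are named in the submitters' processing notes; the annotation, filters and use of strand are not given in the sources used here. All 6 columns matched a sample title, and 0 were left over. Symbols came from a table of gene identifiers and names (51633 of 51912 identifiers matched), and exon lengths from GENCODE M21. Counts were rounded, filtered with filterByExpr (minimum count 10), scaled by TMM and tested with edgeR 4.0.16 (R 4.3.3), quasi-likelihood, group as the only term, Benjamini-Hochberg over 14889 genes. The SE is the size of the fold change over the square root of F. The test was checked on simulated data with 200 changed genes. That is far fewer than the 9345 called here, so the check does not cover change this widespread. DESeq2 1.42.0, limma 3.58.1, other scalings and filters, a stricter threshold, a replicate block and leaving out each library served as alternatives. With totals of 19575000 to 23133100, each of the 39 genes has at least 101 counts in a library.

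The members and lists were chosen with earlier results of these data known. Every member may be named; of each related list, the 2 largest increases and 2 largest decreases among called genes whose mean reached 5 CPM and whose groups do not overlap, plus partners of a member. Some genes that this rule picks are not reported here. Rraga and Rragc were added after their values were seen. Promoter sequences are from RefSeq (GRCm38.p6), where windows for 7 members were not found. Genes are located by GENCODE M21 on GRCm38. Replicates of a time differed by more than counting noise (chi-square per degree of freedom 1.84 to 2.29).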

Additional observations from a re-analysis of the deposited data

How the results depend on the processing

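The count of changed genes among the 39 was 30 and lay between 28 and 30 under the 15 alternative settings, and that of the further genes was 88 and lay between 71 (threshold of 0.01) and 95 (library size as the only scaling). Over all genes it was 9345 and lay between 7810 and 9792. Of the 39 genes, 30 kept direction and call under every one of the 15 settings. Ctsz and Sqstm1 passed with library size as the only scaling, and Calcoco1 without replicate 3 of 24 h (0.12). The cause was not tested. Gabarapl1 and Atg16l1 lost their call under 10 and 8 of them. Leaving out 1 library gave log2 fold changes of 0.08 to 0.15 for Gabarapl1 and 0.08 to 0.12 for Atg16l1.

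The reversals were all of genes that did not pass and lay near 0. With library size as the only scaling, which moves the median of all genes from -0.01 to -0.07, they were those of Mcoln1 (-0.0225), Becn1 (-0.0536), Atg5 (-0.0598) and Atg7 (-0.0416), and the 39 genes then held 26 that fell and 4 that rose, while over all genes 5694 fell and 3779 rose. Atg5 also reversed with every gene that had a count (-0.0027) and when 10 counts were asked of every library (-0.000402). Over the fits that left out 1 library, Becn1 ranged from -0.0212 to 0.0417, Atg5 from -0.0141 to 0.0186, Atg7 from -0.0150 to 0.0379 and Sqstm1 from -0.0304 to 0.0017.

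With the replicate block the count was 30 among the 39 genes, 88 among the further genes and 9235 over all, and no call among the 39 changed. Deviations of libraries with the same number correlated at -0.04, -0.03 and -0.02, so no shared deviation was seen. Whether libraries with the same number have a common origin is not stated.

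The share of promoter windows with the motif fell from 34.2% to 15.8% for the 39 genes and from 7.15% to 0.974% for all windows with TCACGTGA, and was 28.9% and 5.45% in the window from 150 bases before the start. It was 9.91% in the windows of tested genes. Depth did not keep any of the 39 genes from being tested, and 2 of the 126 further genes did not pass the filter.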
